A study of Mus musculus with 12 samples.

Results

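Receptors for calcitonin gene-related peptide (CGRP) and adrenomedullin were followed through 5 genes, Calcrl, Ramp1, Ramp2, Ramp3 and Crcp, which were chosen by symbol from the 22609 genes of each count table. All 5 were present in every table and all 5 were among the 13835 genes that passed the filter on low counts. The libraries came from trigeminal ganglion (TG) cells that carried wheat germ agglutinin (WGA), a tracer injected in the tongue on day 13, and were sorted by flow cytometry on day 15. The groups were normal (MN) and tumor-bearing (MT) males and normal (FN) and tumor-bearing (FT) females, with 3 libraries each, and the study asked how neurons innervating the tongue differed by sex and by tongue tumor.

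All mice were Balb/c athymic nude mice, which lack mature T cells, and the study's methods give their age as 6 to 8 weeks. MT and FT mice carried a tongue tumor grown from HSC3, an established human oral squamous cell carcinoma line, and all groups received WGA. For MN and FN mice the labels state that no cells were given, whereas the study's methods describe an injection of normal human oral keratinocytes, so an injected and an uninjected control cannot be told apart here. A normal library pooled 4 TGs from 2 mice, and a tumor library pooled 4 ipsilateral TGs from 4 mice, so the replicate was the pool and the number of mice differed between normal and tumor groups.

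The CGRP receptor is formed by CALCRL, a G protein-coupled receptor that reaches the cell surface only with a receptor activity-modifying protein (RAMP). RAMP1 makes the pair a receptor for CGRP, a vasodilator and pain-related peptide of sensory neurons, whereas RAMP2 and RAMP3 make it a receptor for adrenomedullin, and CALCRL with RAMP2 is known from vascular endothelium. CRCP, the CGRP receptor component protein, is described as coupling the receptor to signaling and is also a subunit of RNA polymerase III, so its transcript was followed as a member with a general cellular role.

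Promoter sequences are shown of Calcrl, the shared receptor subunit, and of 2 of its partners, Ramp1 and Ramp3. None was matched for Ramp2 or Crcp. Each is the 250 bases before the RefSeq transcript start in build GRCm38.p6, printed 5′ to 3′ on the strand of the gene, and RefSeq promoters were matched for 3 of the 5 members. Capitals mark AGGAAG, a form of the site bound by ETS factors, and GGGCGG, the GC box, on either strand. Other forms of ETS sites were not searched for.
Calcrl, chr2:84425267-84425516, minus strand: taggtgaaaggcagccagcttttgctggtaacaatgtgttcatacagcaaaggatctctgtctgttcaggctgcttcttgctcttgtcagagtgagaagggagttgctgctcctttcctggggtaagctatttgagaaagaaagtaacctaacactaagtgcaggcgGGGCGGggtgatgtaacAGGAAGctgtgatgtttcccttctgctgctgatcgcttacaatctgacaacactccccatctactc
Ramp1, chr1:91179572-91179821, plus strand: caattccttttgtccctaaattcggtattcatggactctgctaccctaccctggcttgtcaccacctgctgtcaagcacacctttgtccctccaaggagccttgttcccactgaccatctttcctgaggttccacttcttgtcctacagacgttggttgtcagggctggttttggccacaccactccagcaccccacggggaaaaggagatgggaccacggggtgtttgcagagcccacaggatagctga
Ramp3, chr11:6658283-6658532, plus strand: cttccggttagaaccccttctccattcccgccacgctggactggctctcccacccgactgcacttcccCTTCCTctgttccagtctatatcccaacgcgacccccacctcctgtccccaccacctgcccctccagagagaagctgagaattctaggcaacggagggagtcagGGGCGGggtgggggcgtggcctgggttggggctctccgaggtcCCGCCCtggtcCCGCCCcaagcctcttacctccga
Calcrl held 1 AGGAAG and 1 GGGCGG, Ramp3 held 1 AGGAAG and 3 GGGCGG, and Ramp1 held neither. Of 32851 RefSeq promoters of the same length, 29.5% held AGGAAG and 32.7% held GGGCGG, so both are common. Neither TATAAA, which 12.4% of promoters held, nor TGACG, the core of the cyclic AMP response element, which 17.8% held, was found in the 3 sequences. These matches describe letters in a window and not binding.

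Between 4592891 and 8922011 reads per library were counted on genes. FN replicate 2, FT replicate 2 and FT replicate 3 stood apart from the other 9 libraries. In these 3 libraries alignments that were not unique made up 52.6% to 68.4% of all counts, against 43.0% to 45.5% in the others. Across the genes tested their highest Spearman rho with any of the 9 was 0.908, whereas the lowest among the 9 was 0.971. All 26 sensory neuron markers were above 1 CPM in every library, with a summed level of 24527 to 30967 CPM. At least 22 of 24 endothelial markers were also above 1 CPM in every library, and in bulk samples fewer cells of a type and less RNA per cell cannot be told apart. Values are given over all 12 libraries and then without the 3 that stood apart.

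Calcrl had a low level that varied widely between libraries. It lies on chromosome 2 at 84170783 to 84265568 of mm9, on the minus strand, with 4882 exon bases. In MN libraries it was at 11.5, 8.07 and 17.0 CPM (counts scaled to a fixed total of reads on genes), and in MT libraries at 8.93, 9.31 and 22.5 CPM. In FN libraries it was at 28.0, 4.18 and 26.3 CPM, and in FT libraries at 15.4, 0.44 and 7.11 CPM. FN replicates 1 and 3 were the highest of all libraries, while the 3 libraries that stood apart were the lowest 3, and all 4 groups overlapped. The 0.44 CPM of FT replicate 2 rested on 2 reads, with an exact Poisson 95% interval of 0.0527 to 1.57 CPM that covers counting error only. Group means were 12.2 ± 4.49 in MN, 13.6 ± 7.71 in MT, 19.5 ± 13.3 in FN and 7.64 ± 7.48 CPM in FT (SD, n = 3).

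Ramp1, which turns CALCRL into the CGRP receptor, was close to the limit of detection. It lies on chromosome 1 at 93076399 to 93121773 of mm9, on the plus strand, with 3022 exon bases. MN libraries had 1.41, 0.34 and 0.34 CPM, MT libraries 1.01, 0.97 and 0.86 CPM, FN libraries 1.76, 3.65 and 0.82 CPM, and FT libraries 1.92, 1.31 and 1.25 CPM. These were 3 to 28 reads per library, and the limit that a count of 0 allows, 3 reads, is 0.336 to 0.653 CPM. All 3 FT libraries were above all 3 MT libraries, as in 8.03% of genes, the other groups overlapped, and the highest library was FN replicate 2.

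Ramp2, which makes the adrenomedullin receptor, was the most abundant RAMP per exon length. It lies on chromosome 11 at 101107342 to 101120860 of mm9, on the plus strand. MN libraries had 24.04, 23.99 and 42.5 CPM, and MT libraries 21.6, 28.3 and 51.9 CPM. FN libraries had 54.8, 155 and 51.9 CPM, and FT libraries 42.3, 57.7 and 68.9 CPM. All FN libraries were above all MN libraries, as in 9.66% of genes, and FN replicate 2 was the highest of the 12. In the gene annotation used for lengths, the span of Ramp2 overlaps that of Vps25 on the same strand, so how the counting divided reads there is uncertain.

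Ramp3, which makes another adrenomedullin receptor, was low and even. It lies on chromosome 11 at 6558524 to 6577478 of mm9, on the plus strand, with 1380 exon bases. MN libraries had 8.44, 8.97 and 7.57 CPM, MT libraries 5.66, 7.22 and 6.17 CPM, FN libraries 8.42, 11.6 and 6.71 CPM, and FT libraries 7.13, 6.53 and 14.2 CPM. All MT libraries were below all MN libraries, as in 7.32% of genes, the other groups overlapped, and the 2 highest libraries were among the 3 that stood apart. Gm11978 lies antisense to Ramp3, and whether the counting used strand is not given in the sources used here.

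Crcp was the most abundant member per exon length, and the most even in the 9 like libraries. It lies on chromosome 5 at 130505160 to 130536659 of mm9, on the plus strand, with 1579 exon bases. MN libraries had 74.7, 77.2 and 76.5 CPM, MT libraries 76.1, 76.1 and 79.1 CPM, FN libraries 69.6, 146 and 66.3 CPM, and FT libraries 61.3, 51.2 and 98.3 CPM. The male libraries lay within a narrow range, and both the lowest and the 2 highest values came from libraries that stood apart. Over the other 9 libraries the coefficient of variation (CV) was 8.15% for Crcp and 14.9% for Ramp3, against 35.6% for Ramp2, 47.0% for Calcrl and 53.2% for Ramp1.

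**Figure D1:**
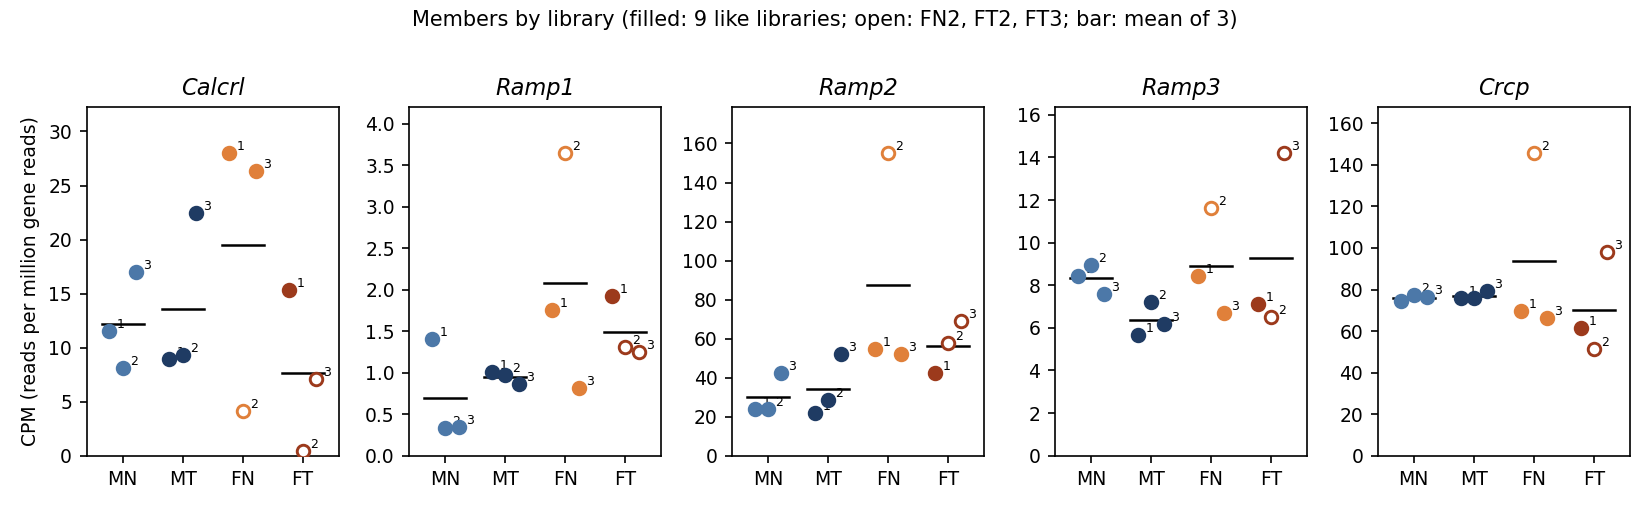
CPM of each member by group, 1 point per library with its replicate number and a bar at the mean of 3, each panel on its own linear axis from 0. Open points are FN replicate 2, FT replicate 2 and FT replicate 3, which were lowest for Calcrl (0.44 to 7.11 CPM) and highest for Ramp2 (57.7 to 155 CPM).

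Levels of different members were compared as RPKM, which divides CPM by exon length in kilobases. Median RPKM over the 12 libraries was 48.2 for Crcp, 14.3 for Ramp2, 5.36 for Ramp3, 2.13 for Calcrl and 0.374 for Ramp1. This order held in 8 of 12 libraries. Calcrl exceeded Ramp3 in MT replicate 3 and FN replicate 3, and Ramp1 exceeded Calcrl in FN replicate 2 and FT replicate 2, so the order of Ramp3 and Calcrl was not separated beyond the spread of libraries. Crcp exceeded Ramp2 in all 12 libraries with 3301 exon bases for Ramp2, and in 10 of 12 when the longest transcript of each gene, 1478 bases for Ramp2, set its length.

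Among the RAMP transcripts, those of the adrenomedullin type predominated in every library. Pairing with CALCRL was not measured, and bulk samples do not show whether these transcripts and Calcrl share cells. Ramp2 made up 52.4% to 83.0% of the summed RPKM of the 3 RAMPs, Ramp3 14.9% to 46.8%, and Ramp1 0.617% to 3.42%. In the 9 like libraries Ramp2 was 2.89 to 4.50 times Calcrl in RPKM. When lengths came from the longest transcripts, this ratio was 6.46 to 10.1, and the Ramp2 share of the RAMPs was 70.3% to 91.2% over the 12 libraries. In FT replicate 2 the ratio by exon length was 196, where the Calcrl level rested on 2 reads.

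Over all 12 libraries, the largest differences in members were those of Ramp1 and Ramp2 between normal females and males. In FN versus MN, edgeR's quasi-likelihood test on all 12 libraries called 0 members and 0 of 13360 genes, those on X and Y left out, at a Benjamini-Hochberg adjusted p under 0.05, a percentage called of 0. At an unadjusted p under 0.05, 2 of 5 members were past the threshold, against 5.57% of all genes. Leaving out FN replicate 1, edgeR called 1 gene and 0 members. DESeq2 called 20 genes and 0 members. Limma-voom with sample quality weights called 800 genes (5.99%) and 2 members, Calcrl and Ramp2.

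Ramp2 was 1.75 higher in FN than in MN on the log2 scale (edgeR, SE 0.54, unadjusted p = 0.00589, adjusted p = 0.809), with no overlap of the groups, as in 9.66% of genes. Without the 3 libraries that stood apart, which leaves 2 FN libraries, the difference was 0.77 (SE 0.30, unadjusted p = 0.0261, adjusted p = 0.256), and FN replicate 2 alone was at 155 CPM. The other 2 FN libraries still did not overlap MN, as in 23.1% of genes.

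Calcrl differed more, not less, when those libraries were set aside. Its FN versus MN difference was 0.68 (SE 0.75, adjusted p = 0.820) over 12 libraries and 1.11 (SE 0.36, unadjusted p = 0.00956, adjusted p = 0.181) over 9. FN replicates 1 and 3 averaged 27.2 ± 1.23 CPM (SD, n = 2), above each of the 3 MN libraries. In the 9-library fit 2 of 5 members, Calcrl and Ramp2, had an unadjusted p under 0.05, against 15.2% of all genes, and 23.1% of genes were higher in FN without overlap. Neither passed the adjusted threshold in edgeR, which called 54 of 13827 genes there, or 0.391%.

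Ramp1 was 1.79 higher in FN than in MN (edgeR, SE 0.75, unadjusted p = 0.0308, adjusted p = 0.809), and 0.90 higher (SE 0.71, adjusted p = 0.588) over 9 libraries, at 3 to 14 reads per library. Ramp3 and Crcp changed sign between the fits. Ramp3 differed by 0.25 (SE 0.42) over 12 libraries and by -0.19 (SE 0.24) over 9. Crcp differed by 0.49 (SE 0.41) over 12 and by -0.22 (SE 0.10, unadjusted p = 0.0565, adjusted p = 0.343) over 9, where FN was below MN without overlap, as in 13.7% of genes.

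No member differed between MT and MN by more than its SE over 12 libraries. In MT versus MN, edgeR called 0 members and 0 of 13835 genes, a percentage called of 0, and 0 members and 59 genes, or 0.426%, had an unadjusted p under 0.05. DESeq2 called 2 genes and limma-voom 47, and neither called a member. Calcrl differed by 0.16 (SE 0.75), Ramp2 by 0.18 (SE 0.53), Ramp1 by 0.50 (SE 0.77) and Crcp by 0.04 (SE 0.41). Ramp3 was lower in all MT libraries than in all MN libraries, as in 7.32% of genes, by -0.37 (SE 0.43, adjusted p = 1.00). In the 9-library fit, where all 6 male libraries remain, the SE of Ramp3 was 0.22 and its adjusted p = 0.758.

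Of the 4 comparisons between groups, tumor in females gave the largest difference for Calcrl over 12 libraries, in the opposite direction to the FN versus MN difference. Both comparisons use the FN libraries, so their directions are not independent. In FT versus FN, edgeR called 0 members and 0 of 13835 genes, and DESeq2 and limma-voom called 0 of either, while 0 members and 3.82% of genes had an unadjusted p under 0.05. Calcrl was lower in FT by -1.29 (SE 0.76, unadjusted p = 0.113, adjusted p = 0.994). The study lists Calcrl among its genes downregulated in FT versus FN. Its rule took a minimum level, a minimum fold change and a p under 0.05 in DESeq, so the calls here rest on another rule. Over the 10 libraries without FN replicate 2 and FT replicate 2, Calcrl was lower by -1.20 (edgeR, SE 0.47, unadjusted p = 0.0255, adjusted p = 0.334). In that fit 1 of 5 members and 2048 of 13943 genes had an unadjusted p under 0.05. Over 9 libraries Calcrl was lower by -0.81 (SE 0.50). Only 1 FT library remains in the last fit, and its spread was taken from the other groups. Ramp2 differed by -0.65 (SE 0.53) over 12 libraries, by 0.18 (SE 0.40) over 10 and by -0.33 (SE 0.41) over 9, so its direction was not settled. Ramp1 (-0.51, SE 0.71), Ramp3 (0.08, SE 0.42) and Crcp (-0.44, SE 0.41) differed by about their SE or less over 12 libraries, and Ramp1 and Ramp3 had the opposite sign over 9.

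Between tumor-bearing mice of the 2 sexes, edgeR called 0 members and 0 of 13360 genes in FT versus MT, and 0 members had an unadjusted p under 0.05, against 12.1% of genes. Leaving out FT replicate 1, edgeR called 755 genes and 0 members. DESeq2 called 246 genes and 0 members, and limma-voom called 0 genes. Ramp1 was higher in all FT than in all MT libraries, as in 8.03% of genes, by 0.78 (SE 0.74, adjusted p = 0.625). Ramp2 differed by 0.93 (SE 0.53), Ramp3 by 0.70 (SE 0.43), Calcrl by -0.77 (SE 0.76) and Crcp by 0.01 (SE 0.41), and the Calcrl value became 0.13 (SE 0.47) over 9 libraries. Over 9 libraries, where FT replicate 1 is the only FT library, edgeR called 1 gene (0.00723%) and 0 members. Crcp was then the 1 member of 5 with an unadjusted p under 0.05, against 8.27% of genes, and was lower in FT by -0.39 (SE 0.13, unadjusted p = 0.0119, adjusted p = 0.491). The 1 FT library was below all MT libraries for Crcp, as for 21.4% of genes. The tumor effect in females minus that in males was called for 0 members and 0 genes by edgeR, with an unadjusted p under 0.05 for 0 members and 1.47% of genes. For Calcrl this difference was -1.45 (SE 1.06, adjusted p = 1.00) over 12 libraries and -0.98 (SE 0.60, adjusted p = 0.959) over 9.

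**Figure D2:**
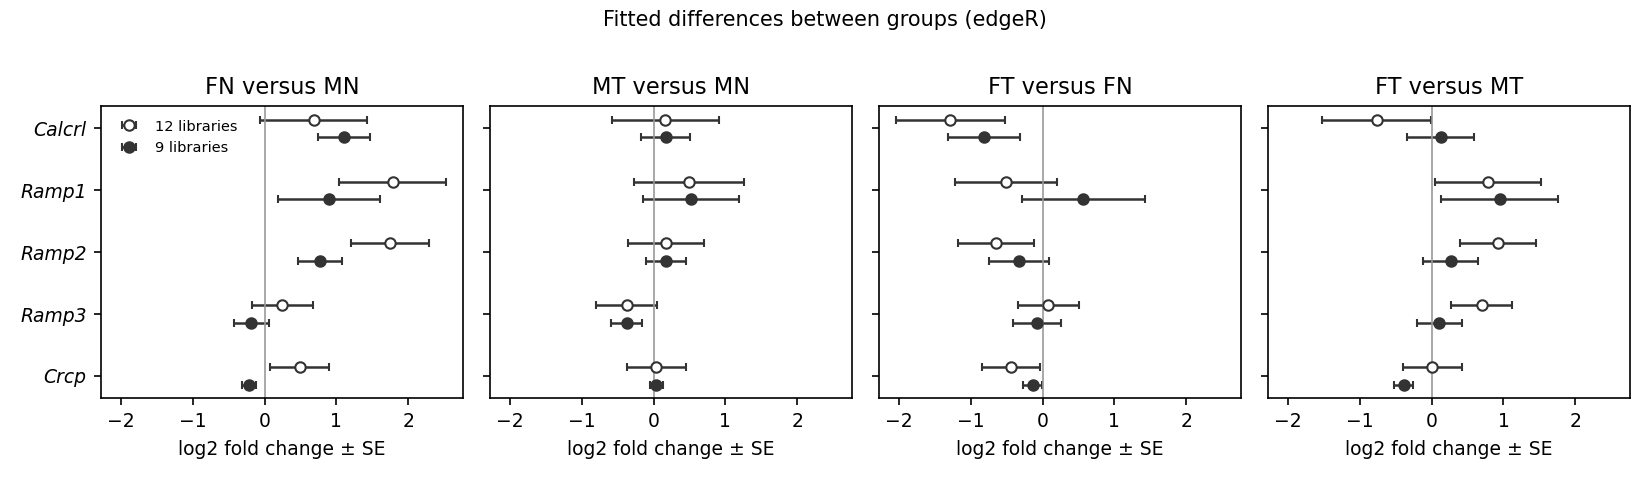
Fitted log2 fold change of each member in 4 comparisons, with bars of 1 SE, for all 12 libraries (open) and for the 9 like libraries (filled). For FN versus MN, Calcrl went from 0.68 to 1.11 and Ramp2 from 1.75 to 0.77 between the fits, and no member passed the adjusted threshold in either.

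Levels of the members were then set beside neuronal and vascular markers. The endothelial list of 24 genes, in which the highest mean CPM were those of Cldn5, a tight junction protein, Esam, an adhesion molecule, and Egfl7, a secreted angiogenic factor, had a sum of 715 to 2238 CPM in the 9 like libraries. Calcrl was 0.718 to 1.28 CPM per 100 CPM of this list, a CV of 16.8% against 47.0% for Calcrl CPM. Ramp2 was 1.95 to 3.36 CPM per 100 CPM, a CV of 15.9% against 35.6% for Ramp2 CPM. Across these 9 libraries both genes therefore followed the endothelial sum more closely than they followed the library total, and both were highest in the libraries with the largest sums. Male libraries alone spanned 0.718 to 1.17 for Calcrl, with sums from 715 to 1989 CPM.

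Ramp3 and Crcp did not follow the endothelial sum. Scaling to the endothelial list raised the CV from 14.9% to 53.1% for Ramp3 and from 8.15% to 51.2% for Crcp. For Ramp1, at 3 to 14 reads in these libraries, it was 53.2% before and 53.3% after.

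**Figure D3:**
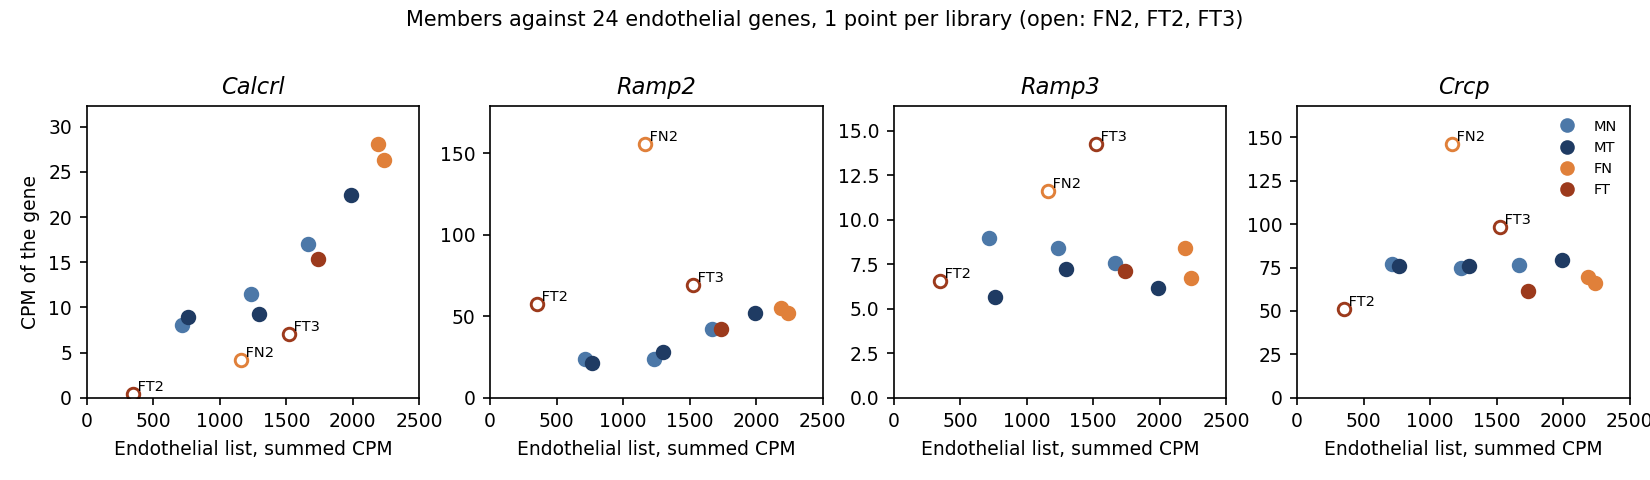
CPM of Calcrl, Ramp2, Ramp3 and Crcp against the summed CPM of 24 endothelial genes, 1 point per library colored by group, on linear axes from 0. The 9 filled points of Calcrl and Ramp2 lie along a line, those of Ramp3 and Crcp are level, and FN replicate 2, FT replicate 2 and FT replicate 3 (open) lie below the line for Calcrl and above it for Ramp2.

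Likeness between genes was described by Pearson's r of log2 CPM over libraries, which share depth and sorting, and no p is given. Calcrl and Ramp2 had r = 0.951 (Spearman rho 0.967) over the 9 like libraries and r = -0.21 (rho -0.15) over all 12. Over the 9, the median r with 23 endothelial genes was 0.895 for Calcrl and 0.908 for Ramp2, where the median over all genes compared was 0.150 and 0.142. With 26 sensory neuron genes it was -0.60 for Calcrl and -0.62 for Ramp2. Crcp had the opposite signs, with -0.43 for the endothelial and 0.398 for the neuronal list, and Ramp3 was near 0 for both (-0.03 and -0.03). The endothelial list was not the only one to move with Calcrl and Ramp2. Macrophage markers had a median r of 0.806 and 0.808 with them, and satellite glia markers 0.781 and 0.785. Pericyte and smooth muscle markers had 0.792 and 0.752. Over all 12 libraries the median r with the endothelial list was 0.780 for Calcrl and -0.099 for Ramp2. All genes compared had 0.404 and -0.24, and the sensory neuron list 0.259 and -0.28. Crcp then had -0.24 with the endothelial and -0.27 with the neuronal list, and Ramp3 -0.33 and -0.21. For Ramp2 the fibroblast and macrophage lists led over the 12, at 0.764 and 0.701. The part of each cell type in these levels was not tested.

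The genes most like each member over the 9 libraries were Trim47, Sox2ot, Fli1, March8 and Ssfa2 for Calcrl (r from 0.974 to 0.986) and Sox13, Acer2, Smtn, Gimap5 and Cd38 for Ramp2 (r from 0.974 to 0.985). Fli1 encodes an ETS factor known from blood and endothelial cells. Of the 50 most like genes, 4 for Calcrl and 3 for Ramp2 were endothelial markers (1 and 0 over all 12 libraries). For Ramp1, Ramp3 and Crcp 0 were, while endothelial markers made up 0.207% of the genes compared. For Ramp3 the leading genes were Uck2, Ccdc47, Dhcr7, Zfp846 and Rbm15 (r from 0.874 to 0.899), for Crcp they were Tmtc1, Mark1, Tmem41b, Atad2 and Gtf2a1 (r from 0.915 to 0.956), and for Ramp1 they included Cryl1, Rps14, Ppib and Fcf1 (r from 0.932 to 0.940). Over all 12 libraries different genes led, with Sdc2 (r = 0.985) and Entpd1 (r = 0.980) first for Calcrl, Tspo (r = 0.951) and Klf2 (r = 0.943) for Ramp2, Eif4ebp1 (r = 0.878) for Ramp1, Hist3h2a (r = 0.928) for Ramp3 and Rab3a (r = 0.969) for Crcp.

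The endothelial genes had the same direction as Calcrl between groups. In FN versus MN all 24 had a positive difference, with 0 called. An unadjusted p under 0.05 was found for 1 over 12 libraries and 18 over 9, against 5.57% and 15.2% of all genes. Of all genes 0% were called over 12 libraries and 0.391% over 9. The median was 0.63 and 0.86 where all genes had 0.07 and 0.00. In FT versus FN 23 of 24 were lower over 12 libraries (median -0.68, all genes -0.06, 0 called) and 22 of 24 over 9 (median -0.43, all genes -0.02). The study lists Calcrl and some of these endothelial genes as downregulated in FT versus FN in the same data. The lists were chosen with earlier results of these data known, so the shared direction is not a separate finding. In FT versus MT over 12 libraries 18 of 24 were lower (median -0.19), whereas Ramp2 was 0.93 higher. Pericyte and smooth muscle markers were higher in FN than in MN in 8 of 13 over 12 libraries (median 0.72, 2 at an unadjusted p under 0.05). Over 9 libraries 11 of 13 were higher (median 0.83, 4 at an unadjusted p under 0.05), and 0 were called in either fit. Macrophage markers were also higher in FN than in MN, with 14 of 14 tested positive, 13 at an unadjusted p under 0.05, 0 called and a median of 3.00 over 12 libraries, and their sum was 23.8 to 34.3 CPM in MN and 145 to 327 CPM in FN. Satellite glia markers were higher in 7 of 7 tested over 12 libraries (median 0.41, 1 at an unadjusted p under 0.05, 0 called) and in 6 of 7 over 9 (median 0.68, 5 at an unadjusted p under 0.05, 1 called). Sensory neuron markers lay the other way, with 18 of 26 lower over 12 libraries (median -0.25, 0 called) and 25 of 26 lower over 9 (median -0.25, 11 of them at an unadjusted p under 0.05, 1 called). Whether the Calcrl and Ramp2 differences between the sexes came with these cell types was not tested.

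In the 3 libraries that stood apart, Calcrl and Ramp2 parted from each other. Calcrl was at 0.124 to 0.467 CPM per 100 CPM of the endothelial list, whereas Ramp2 stood at 13.3 (FN replicate 2), 16.4 and 4.52 (replicates 2 and 3 of FT). Levels in these libraries also differed by gene length, as medians over genes of the difference from the mean log2 CPM of the other 9. In FN replicate 2 the median was 1.22 for genes with under 1500 exon bases, 0.13 for those from 1500 to under 3000, -0.998 for those from 3000 to under 4500 and -0.89 for those with 4500 or more. In FT replicate 3 the same 4 medians were 0.89, 0.44, -0.56 and -0.65. In FT replicate 2 they were 0.35, -0.79, -0.92 and -0.38, so the shortest genes were highest there too but the longest class was not the lowest. Calcrl, with 4882 exon bases, was at -1.76 in FN replicate 2, at -4.42 in FT replicate 2, where it rested on 2 reads, and at -1.03 in FT replicate 3. Of the 24 endothelial genes 17, 23 and 17 were lower in these libraries, in that order, with medians of -1.22, -2.35 and -0.64. They did not move as 1 block, since Egfl7 was at 0.81, -0.90 and 0.67 and Cldn5 at 0.57, -2.28 and 1.11.

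By its exon total, Ramp2 was above the median of the genes of its length. It was at 2.11, 0.69 and 0.94 in the same 3 libraries, whereas the 3359 genes with at least 3000 and under 4500 exon bases had medians of -0.998, -0.92 and -0.56, and its difference ranked at the 99.1, 79.1 and 89.5 percentile of 13655 genes. Its longest transcript has 1478 bases, and against the class under 1500 it was higher by less, and in FT replicate 3 it was close to the class median of 0.89. Ramp3, with 1380 exon bases, was at 0.65, -0.15 and 0.94, and Crcp, with 1579, at 1.00, -0.51 and 0.43. Ramp1, with 3022 exon bases and 6 to 28 reads, was at 1.70, 0.39 and 0.34. The part of gene length, and of reads mapped to several places, in these levels was not tested.

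**Figure D4:**
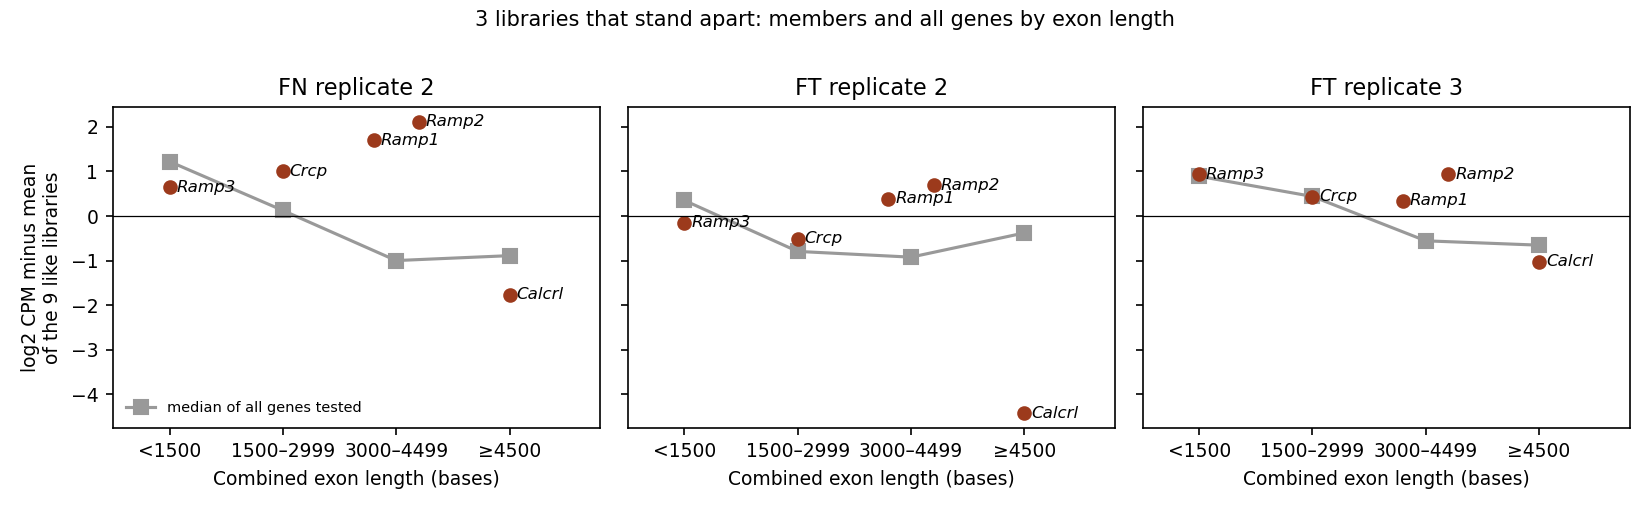
Difference in log2 CPM of each library that stood apart from the mean of the other 9, against combined exon length in 4 classes. Gray squares are medians over all genes tested in a class and red points are the members placed in their class (Ramp1 and Ramp2 are shifted sideways), with Calcrl below the median of its class in all 3 panels and Ramp2, placed by its exon total, above it.

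Of the ligands, both CGRP genes were abundant and the adrenomedullin genes were low. Calca, which encodes alpha-CGRP and calcitonin, was at 3242 to 11272 CPM over the 12 libraries, and Calcb, which encodes beta-CGRP, at 143 to 511 CPM. Adm, the adrenomedullin gene, was at 0.44 to 6.97 CPM, and Adm2 had 6 reads or fewer in every library. Iapp, the amylin gene, had 0 reads in all 12 libraries, which allows up to 0.336 to 0.653 CPM by library. Of 5 ligand genes 3 passed the filter, and 0 of 3 were called in any of the 5 comparisons. Adm was at 2.11, 1.91 and 2.18 CPM in MN and at 4.15, 3.06 and 5.43 CPM in MT, without overlap as in 5.8% of genes, a difference of 1.04 (edgeR, SE 0.63, adjusted p = 1.00). Over 9 libraries Adm had SE 0.33 and an unadjusted p = 0.00787, with adjusted p = 0.462. Calca was 1.02 higher in FN than in MN (SE 0.49, adjusted p = 0.809), and 0.05 higher (SE 0.12) over 9 libraries, with FN replicate 2 at 11272 CPM and the other FN libraries at 3843 and 3918 CPM.

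Enzymes that process peptide precursors were detected in every library. Cpe, a carboxypeptidase that trims them, was at 512 to 1382 CPM, Pcsk2, a prohormone convertase, at 125 to 1421 CPM, and Pam, which amidates peptide ends, at 163 to 278 CPM. Of 4 such genes 0 were called in any comparison. Pcsk2 was 1.72 higher in FT than in FN over 12 libraries (SE 0.62, unadjusted p = 0.0148, adjusted p = 0.994) and 0.09 higher (SE 0.14) over 9, and its highest library was FT replicate 2.

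Other receptors and signaling genes gave no called change. Calcr, the calcitonin receptor, had 0 reads in all 12 libraries. Cxcr7, a scavenger receptor described for adrenomedullin, was at 1.04 to 27.2 CPM, and was 0.51 higher in FN than in MN (SE 0.69) over 12 libraries and 0.96 higher (SE 0.33, unadjusted p = 0.0124, adjusted p = 0.194) over 9. Its highest library was FT replicate 2, at 27.2 CPM. Over 12 libraries Cxcr7 was 1.54 higher in FT than in FN (SE 0.69, unadjusted p = 0.0417, adjusted p = 0.994) and 2.01 higher in FT than in MT (SE 0.70, unadjusted p = 0.0123, adjusted p = 0.332). Over 9 libraries these differences were -0.081 (SE 0.43) and 0.83 (SE 0.40). Of 20 transduction genes all 20 passed the filter and 0 were called in any comparison. The highest mean CPM were those of Gnas, the stimulatory G protein subunit, at 1458 to 3972 CPM, and of Prkar1a and Prkar1b, regulatory subunits of protein kinase A, at 451 to 1681 and 427 to 1324 CPM. In FN versus MN, 13 of 20 were lower, with a median of -0.11. Peptide degradation was represented by Ece1, endothelin-converting enzyme, at 42.4 to 197 CPM, and Mme, neprilysin, at 0.44 to 7.09 CPM, and 0 of 2 were called.

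RNA polymerase III, of which CRCP is also a subunit, was compared as a list of 17 subunit genes, including those shared with other polymerases. All 17 passed the filter and 0 were called in any comparison. In FN versus MN 11 of 17 were higher, with a median of 0.44 over 12 libraries, and 10 of 17 with a median of 0.04 over 9. Polr3g was at 38.8 to 171 CPM and Polr2e at 73.2 to 198 CPM. In FN replicate 2, where Crcp was highest, 9 of the 17 subunit genes were above both other FN libraries and 8 were below both. Polr3g was at 42.9 CPM there, against 114 and 101 CPM in the other FN libraries, and its FN versus MN difference was -0.40 (SE 0.50) over 12 libraries. Polr2e was at 198 CPM there, and its FN versus MN difference went from 0.89 (SE 0.41) over 12 libraries to 0.19 (SE 0.11) over 9.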

How the data were processed

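WGA-positive TG cells of 12 samples were measured, 3 in each of MN, MT, FN and FT by the labels. Per the study's methods and the submitters' processing notes, the authors made SMART-seq2 libraries, read them as single 50-base reads, processed them with CASAVA 1.8.2, aligned them to mm9 with TopHat2 and counted them with HTSeq. The deposited values are whole counts per gene symbol without normalization, and the strand setting and annotation are not given in the sources used here. The 5 rows that name no gene, 76.3% to 88.8% of all counts, were left out.

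The members and lists were chosen with earlier results of these data known. CPM used reads counted on genes, and RPKM used GENCODE M1 exon lengths, found for 95.7% of symbols. Counts were fitted in edgeR 4.0.16 (R 4.3.3) with TMM, filterByExpr (minimum count 10, minimum total count 15), 1 mean per group over 12 libraries, the quasi-likelihood test and Benjamini-Hochberg adjustment over all genes tested. Comparisons between sexes excluded sex-chromosome genes. A called gene had an adjusted p under 0.05. P-values measure the spread between pools.

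Named genes were the members, the pathway lists, the 3 genes of highest mean CPM in the endothelial list, and for each member the 5 genes with the highest r of log2 CPM (prior count 2) among 11132 genes with a mean of at least 5 CPM. Some genes are not reported here. Marker lists for fibroblasts and myelinating Schwann cells had a median r with Calcrl of 0.648 and 0.629 over 9 libraries. Alternatives were limma-voom (limma 3.58.1), the test or only the size factors of DESeq2 1.42.0, no filter, only the groups compared, a replicate block, 10 or 9 libraries and 12 fits without 1 library, and 2 were added after seeing the data. The fits were also run on simulated counts. These held no libraries that stood apart, so that run does not show how the fits behave with such libraries. Promoters came from RefSeq. Other steps used Python 3.11.15, numpy 2.4.6, pandas 2.3.3 and matplotlib 3.10.9.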

Additional observations from a re-analysis of the deposited data

How the results depend on the processing

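No member was called at an adjusted p under 0.05 in any comparison under the 22 other settings of the fit, except Calcrl (1.17, adjusted p = 0.0133) and Ramp2 (0.85, adjusted p = 0.0295) in FN versus MN by limma-voom with sample quality weights; over all settings the adjusted p of Calcrl there ran from 0.0133 to 1.00. FN versus MN kept its direction for Calcrl, Ramp1 and Ramp2 under every setting. The number of genes called did move. In FN versus MN it was 20 by DESeq2, 800 by limma-voom, 54 over 9 libraries, 280 by DESeq2 over 9 libraries, and 0 to 1 without 1 library. In MT versus MN it was 2 by DESeq2, 47 by limma-voom, 6 with only the groups compared, 3 over 9 libraries and 55 by DESeq2 over 9. In FT versus MT it was 246 by DESeq2, 1 over 9 libraries, 39 by DESeq2 over 9, and 0 to 755 without 1 library, and for the difference between the sexes in the tumor effect it was 4 by DESeq2 over 9 libraries.

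The replicate numbers gave no sign of pairing, with correlations of deviations from -0.36 to 0.574 and 5 of 18 same-number pairs over 0.1. Pairs with different numbers had -0.65 to 0.615 and 8 of 36 over 0.1. With 3 libraries per group this check cannot exclude pairing. The replicate block gave 0 genes and 0 members called in each of the 5 comparisons over 12 libraries, and over 9 libraries, an alternative chosen after seeing the data, as was DESeq2 over 9, it gave 25 genes in FN versus MN and 16 in MT versus MN, with 0 members.

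Several uncalled differences changed sign. In FN versus MN, Ramp3 was -0.13 by limma-voom and -0.19 over 10 and 9 libraries by edgeR and over 9 by DESeq2, -0.11 with the block over 9, and -0.17 to 0.46 without 1 library, and Crcp was -0.17 by limma-voom, -0.22 over 10, over 9 and by DESeq2 over 9, -0.21 with the block over 9, and -0.20 to 0.74 without 1 library. In MT versus MN, Calcrl was -0.11 by limma-voom and -0.37 to 0.46 without 1 library, and Ramp2 -0.23 to 0.49 without 1 library. In FT versus FN, Ramp1 was 0.35 by limma-voom, 0.37 over 10 libraries, 0.56 over 9, 0.58 by DESeq2 over 9, 0.12 with the block over 9 and -0.92 to 0.39 without 1 library. Ramp2 was 0.060 by limma-voom, 0.18 over 10 libraries and -0.97 to 0.31 without 1 library, and Crcp was 0.16, 0.35 and -0.72 to 0.24. Ramp3 was -0.080 over 9 libraries and -0.077 by DESeq2 over 9, -0.15 with the block over 9 and -0.33 to 0.49 without 1 library. In FT versus MT, Calcrl was 0.13 over 9 libraries by edgeR and DESeq2 and 0.25 with the block over 9. Crcp was -0.051 by limma-voom, -0.018 with no filter, -0.39 over 9 by edgeR and DESeq2, -0.40 with the block over 9 and -0.28 to 0.16 without 1 library. The changes without 1 library came with FN replicate 2, FT replicate 3 or MT replicate 3 and, for values near 0, with others, and their cause was not tested.

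Without Cldn5, its most abundant gene, the endothelial list gave a median of 1.398 for Calcrl and 3.16 for Ramp2 per 100 CPM over 9 libraries, against 1.13 and 2.51 with it, since the list sum is then smaller. Depth limited Ramp1 most, at 3 to 28 reads per library.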
